A study of Mus musculus with 48 samples.

Results

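The 9 genes described here are read as outputs of Wnt signalling: Axin2, Lef1, Tcf7, Nkd1, Nkd2, Sp5, Lgr5, Rnf43 and Znrf3. They were taken by symbol from the RNA count table, where all 9 of 9 were found among 55487 genes. From the limbs of mice (C57BL/6, postnatal day 3) the study sorted 3 populations. SSC are the skeletal stem cells. BCSP are the bone, cartilage and stromal progenitor cells, and pBCSP the matching pre-bone, cartilage and stromal progenitor cells. WT libraries came from Ptipf/f mice and KO libraries from Ptipf/f;Col2a1-cre mice, so the floxed Ptip alleles were present in every group and the KO groups carried the Col2a1-driven Cre recombinase as well. An effect of the Cre transgene and an effect of the Ptip deletion cannot be told apart in this design, and the deletion reaches only cells in which the Col2a1 promoter has been active. RNA was measured in 12 libraries, 2 for each of 6 groups (WT and KO of each population). Histone marks H3K4me3, H3K4me1 and H3K27ac were available as peak lists for the same 6 groups. The labels do not say whether libraries came from separate animals, so p-values measure the spread between these libraries, which may be technical.

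Wnt proteins bind Frizzled receptors and Lrp co-receptors and stop the destruction complex from degrading beta-catenin, which then enters the nucleus and acts with transcription factors of the TCF/LEF family. Several of the genes switched on in this way act back on the pathway, and their RNA is commonly used as a reading of signal strength. In the growing limb, Wnt signals act on the choice between cartilage and bone fates and on the maturation of chondrocytes and osteoblasts. The 9 genes fall into 4 roles. Axin2 (a scaffold of the destruction complex), Nkd1 and Nkd2 (Naked cuticle proteins, which bind Dishevelled) restrain the signal inside the cell. Znrf3 and Rnf43 are membrane ubiquitin ligases that remove Frizzled receptors from the surface. Lgr5 is a receptor for R-spondins, the secreted proteins that hold Znrf3 and Rnf43 in check. Lef1 and Tcf7 are TCF/LEF transcription factors, and Sp5 is a zinc-finger factor that represses Wnt targets.

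On GRCm38, Axin2 (ENSMUSG00000000142) lies at chr11:108917828-108950783, Nkd1 (ENSMUSG00000031661) at chr8:88521342-88594887 and Nkd2 (ENSMUSG00000021567) at chr13:73818534-73847631. Znrf3 (ENSMUSG00000041961) lies at chr11:5276329-5444847, Rnf43 (ENSMUSG00000034177) at chr11:87663087-87735539 and Lgr5 (ENSMUSG00000020140) at chr10:115450314-115587780. Lef1 (ENSMUSG00000027985) lies at chr3:131110297-131224357, Tcf7 (ENSMUSG00000000782) at chr11:52246527-52283383 and Sp5 (ENSMUSG00000075304) at chr2:70474923-70477726. Of these, 4 overlap another RefSeq gene. Tcf7 overlaps Skp1, Nkd2 overlaps Gm8062 and Gm30303, Lgr5 overlaps A930009A15Rik, and Rnf43 overlaps Gm25968 and 1110028F11Rik. Nothing in the labels tells whether counting used strand, so reads in the shared stretches cannot be assigned with certainty.

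The RefSeq promoter table (GRCm38.p6) held 7 of the 9 genes, with 12 listed starts between them. The 250 bases before a start are printed for 5 genes, chosen for different features of their RNA or marks in these data. Axin2 had little RNA under a wide H3K4me3 peak, and Nkd2 was the gene whose WT and KO levels did not overlap. Sp5 and Rnf43 had an H3K4me3 peak with almost no RNA. Nkd1 had RNA but no H3K4me3 peak at the listed start, which lies inside the gene record. At the 5′ end of that record, Nkd1 had an H3K4me3 peak in every list. All 5 stretches are written 5′ to 3′ on the gene's strand, and capitals mark matches to the TCF/LEF motif described after them. The stretches lie at chr11:108920099-108920348 (plus strand), chr13:73847632-73847881 (minus strand), chr2:70474673-70474922 (plus strand), chr11:87662837-87663086 (plus strand) and chr8:88527383-88527632 (plus strand).
Axin2: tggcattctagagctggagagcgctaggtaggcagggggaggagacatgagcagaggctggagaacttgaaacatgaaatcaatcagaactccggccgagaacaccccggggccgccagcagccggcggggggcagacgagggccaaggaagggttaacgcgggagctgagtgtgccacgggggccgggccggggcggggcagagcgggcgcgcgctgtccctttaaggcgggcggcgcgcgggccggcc
Nkd2: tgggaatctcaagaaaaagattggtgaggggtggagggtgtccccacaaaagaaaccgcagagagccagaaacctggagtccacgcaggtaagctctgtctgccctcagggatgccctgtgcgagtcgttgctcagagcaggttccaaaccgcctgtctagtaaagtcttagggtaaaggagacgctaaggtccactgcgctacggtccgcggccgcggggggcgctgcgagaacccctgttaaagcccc
Sp5: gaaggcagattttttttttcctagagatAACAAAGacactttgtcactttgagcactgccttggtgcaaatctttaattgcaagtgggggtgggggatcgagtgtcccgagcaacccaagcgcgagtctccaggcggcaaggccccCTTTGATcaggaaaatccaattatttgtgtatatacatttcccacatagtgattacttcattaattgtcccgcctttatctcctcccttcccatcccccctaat
Rnf43: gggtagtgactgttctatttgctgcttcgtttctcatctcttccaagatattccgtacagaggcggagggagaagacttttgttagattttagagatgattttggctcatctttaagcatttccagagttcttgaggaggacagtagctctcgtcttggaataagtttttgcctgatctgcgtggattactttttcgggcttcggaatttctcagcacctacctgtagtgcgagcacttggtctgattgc
Nkd1: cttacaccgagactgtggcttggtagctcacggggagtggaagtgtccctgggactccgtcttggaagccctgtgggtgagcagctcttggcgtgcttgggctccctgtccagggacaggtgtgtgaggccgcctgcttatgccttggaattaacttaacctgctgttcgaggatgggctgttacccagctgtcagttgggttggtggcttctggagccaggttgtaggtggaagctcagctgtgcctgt

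A short TCF/LEF motif was searched in 4 spellings on both strands of the listed 300-base promoter sequences (250 bases before a start and 50 after it). The spelling CTTTGAA was found in 5.14% of the 32851 promoter sequences of the table, the spelling CTTTGAT in 3.73%, the spelling CTTTGTA in 3.63% and the spelling CTTTGTT in 5.85%. Sp5 held 2 matches, CTTTGAT from 104 bases before the start on its own strand and CTTTGTT from 222 bases before it on the opposite strand, where the printed strand shows the reverse complement. One of the 4 listed Lef1 starts, at position 131156294 inside the gene, held CTTTGTA on the opposite strand. No match was found in the sequences of Axin2, Tcf7, Nkd1, Nkd2 or Rnf43. At least 1 of the 4 was present in 16.9% of the table. Composition differed among the members. Over 300 bases, the Axin2 sequence held 31 CpG dinucleotides, Nkd2 26, the 2 Tcf7 starts 45 and 17, Rnf43 10 and 3, and Sp5 and the listed Nkd1 start 6 each, beside a median of 7 over the table.

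The 12 RNA libraries held 15495915 to 22670899 counts. Paxip1, the gene of the PTIP protein, stood at 7.25 to 14.6 CPM (counts scaled to library size with TMM factors) in the WT libraries and at 0 to 3.48 CPM in the KO libraries, without overlap. The chondrocyte marker Col2a1 was at 21140 to 58090 CPM in all libraries. Among blood markers, Cd3g, Cd4 and Cd8a were at 0 in all 12, and Ptprc did not exceed 0.579 CPM. Other listed blood markers were detected: Hba-a1 reached 129.8 CPM, Hbb-bs 64.39 CPM, Laptm5 24.45 CPM and Lyz2 8.59 CPM, so the sorts were not free of blood RNA. One library stood apart: SSC KO replicate 2 had reads in 13987 genes, while the other 11 had reads in 20965 to 23831. Libraries of bulk cells cannot tell fewer cells of a type from less RNA per cell. Genes were tested with edgeR's quasi-likelihood test in 1 fit of the 12 libraries. A gene counts as called where its Benjamini-Hochberg adjusted p over the 17494 genes tested was under 0.05.

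No member passed that threshold in any comparison, while on average over the populations the fitted difference of all 7 tested members was below 0. Sp5 and Rnf43 did not reach the minimum count for testing. The 7 differences ran from -2.65 to -0.42 on the log2 scale with a median of -1.15, beside a median of -0.09 over all genes tested, of which 55.3% were below 0. Of the 17494 genes, 1.17% were called on average, 0.206% as lower and 0.966% as higher. By edgeR's unadjusted p, 5 members (Axin2, Nkd1, Nkd2, Lgr5 and Znrf3) were under 0.05, all as lower, a level that 8.57% of all genes reached as lower. The fit treats all libraries as independent. Deviations of same-numbered libraries of a genotype, however, correlated at 0.28 to 0.488 between populations. The SEs and p-values of the averages, here and below, may therefore be too small. DESeq2 called 1 member on average, Znrf3, beside 1693 of all genes. Without SSC KO replicate 2, edgeR called 0, the 7 averages ran from -2.32 (Nkd2) to -0.27 (Lef1), and Znrf3 was at -0.62 (adjusted p = 0.0544). Without SSC KO replicate 1, edgeR called 5 members on average (Axin2, Tcf7, Nkd2, Lgr5 and Znrf3) and 6277 of all genes. With every gene holding at least 1 count kept, it called 3 (Nkd2, adjusted p = 1.717e-07, Lgr5 and Znrf3), beside 1882 of all genes.

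Axin2, a widely used reading of beta-catenin activity, was low throughout, with 11 to 80 reads a library. In SSC it was at 3.52 and 4.66 CPM in WT replicates 1 and 2 and at 2.01 and 0.610 CPM in the KO replicates. In pBCSP the WT libraries were at 2.67 and 4.32 CPM and the KO libraries at 1.64 and 1.67 CPM. In BCSP they were at 2.02 and 3.82 CPM against 1.26 and 2.25 CPM. Both KO libraries lay below both WT libraries in SSC and pBCSP, and the genotypes overlapped in BCSP. The average difference was -1.15 ± 0.46 log2 (SE; unadjusted p = 0.0329, adjusted p = 0.214).

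Nkd1 showed a different order. In SSC it was at 61.4 and 69.3 CPM in WT and at 34.9 CPM in both KO libraries. In pBCSP it was at 30.4 and 32.9 CPM in WT against 25.2 and 12.9 CPM in KO, and in BCSP at 17.4 and 21.7 CPM against 24.8 and 21.8 CPM. KO libraries were therefore lower without overlap in SSC and pBCSP, and higher in BCSP by a narrow margin (21.84 CPM as the lower KO value and 21.69 CPM as the higher WT value). The fitted differences were -0.90 ± 0.35, -0.73 ± 0.35 and 0.26 ± 0.35 log2. The test of whether the genotype difference varied among populations gave an unadjusted p of 0.0867 and an adjusted p of 1, so a difference between populations was not shown.

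Nkd2, the second Naked cuticle gene, was the only member whose 6 WT libraries all lay above all 6 KO libraries, and the margin was narrow (12.37 CPM as the lowest WT value and 12.33 CPM as the highest KO value). The share of all genes separated in this way was not counted, for Nkd2 or for the pathway genes named below. In SSC its WT libraries were at 13.1 and 22.2 CPM and its KO libraries at 5.34 and 0 CPM. In pBCSP they were at 12.4 and 12.6 CPM against 3.22 and 0 CPM, and in BCSP at 26.1 and 35.4 CPM against 12.3 and 0.548 CPM. KO replicate 2 was at or near 0 in every population, and KO replicate 1 was between those and the WT libraries. The average difference was -2.65 ± 1.17 log2 (unadjusted p = 0.0484, adjusted p = 0.252), the largest in size and the least precise of the 7.

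**Figure D1:**
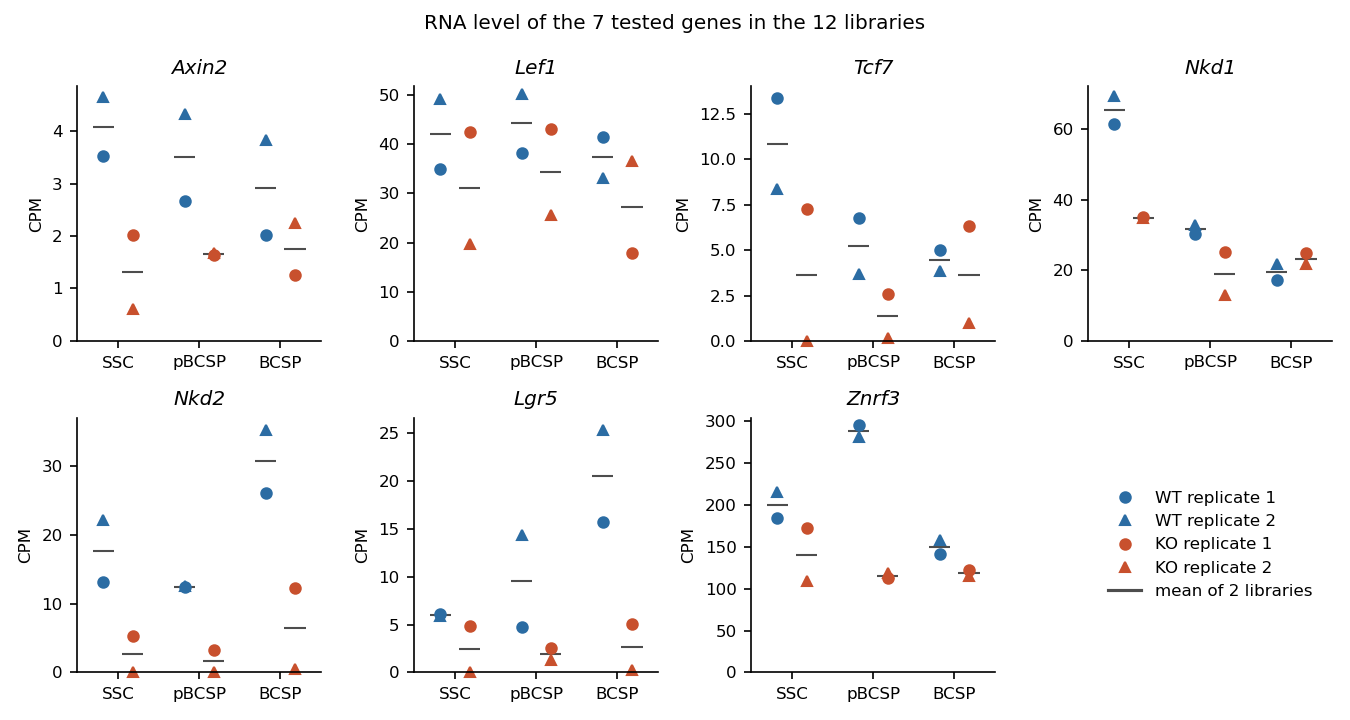
RNA level (CPM, linear axis from 0) of the 7 tested genes in each library, by population and genotype; circles are replicate 1, triangles replicate 2 and lines the mean of the 2 libraries. Znrf3 in WT pBCSP (295 and 282 CPM) stands above every other library, and Tcf7, Nkd2 and Lgr5 are at or near 0 in KO replicate 2, at up to 1.31 CPM.

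Znrf3 was the best measured member, with 1789 to 6626 reads a library. In SSC it was at 184 and 215 CPM in WT and at 172 and 109 CPM in KO. In pBCSP the WT libraries were at 295 and 282 CPM and the KO libraries at 113 and 118 CPM. In BCSP they were at 141 and 158 CPM against 123 and 115 CPM. Both KO libraries lay below both WT libraries in each population, and the gap was widest in pBCSP, at -1.32 ± 0.26 log2 (unadjusted p = 0.00065, adjusted p = 0.74), beside -0.51 ± 0.26 in SSC and -0.33 ± 0.26 in BCSP. The average of -0.72 ± 0.15 log2 came closest of the 7 to the threshold (unadjusted p = 0.000894, adjusted p = 0.0576), and it was called in 4 of 19 alternative fits (adjusted p from 0.000918 to 0.225). Whether the difference varied among populations was not settled (unadjusted p = 0.0525, adjusted p = 1).

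Rnf43, the close relative of Znrf3, had 1 read in each of 3 libraries and none in the other 9. A count of 0 allows up to 3 reads, which is 0.134 to 0.208 CPM in these libraries, so its RNA was not detectable above that floor. These values and those of Znrf3 come from different genes and were not scaled by transcript length, so they do not rank the 2 genes by molecules.

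Lgr5, the R-spondin receptor, was at 6.05 and 5.85 CPM in WT SSC, at 4.76 and 14.4 CPM in WT pBCSP and at 15.7 and 25.3 CPM in WT BCSP. The KO libraries were at 4.85 and 0 CPM in SSC, at 2.52 and 1.31 CPM in pBCSP and at 5.01 and 0.243 CPM in BCSP. Every KO library lay below the WT libraries of its population, but SSC KO replicate 1 was only a little lower. The average difference was -2.19 ± 0.97 log2 (unadjusted p = 0.0483, adjusted p = 0.252).

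Among the transcription factors, Lef1 hardly separated the genotypes. It was at 35.0 and 49.1 CPM in WT SSC against 42.4 and 19.8 CPM in KO SSC. It was at 38.3 and 50.2 CPM in WT pBCSP against 43.0 and 25.5 CPM in KO pBCSP, and at 41.6 and 33.1 CPM in WT BCSP against 17.9 and 36.7 CPM in KO BCSP. One KO library of each population lay between the WT values, and the average of -0.42 ± 0.28 log2 did not pass (unadjusted p = 0.167, adjusted p = 0.436).

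Tcf7 was at 13.4 and 8.36 CPM in WT SSC, at 6.76 and 3.67 CPM in WT pBCSP and at 5.03 and 3.88 CPM in WT BCSP. KO replicate 1 was at 7.28, 2.59 and 6.32 CPM in the 3 populations, and KO replicate 2 at 0, 0.181 and 0.974 CPM. The genotypes did not overlap in SSC and pBCSP, while in BCSP 1 KO library was above and 1 below both WT libraries. With the replicates this far apart, the average of -1.26 ± 1.01 log2 was not distinguishable from 0 (unadjusted p = 0.241, adjusted p = 0.516).

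Sp5 was covered by 7 reads in all, 3 of them in SSC WT replicate 2, 1 in SSC KO replicate 1 and 3 in pBCSP KO replicate 1. The other 9 libraries had none, and no comparison between genotypes can be made at that depth.

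Counted by population, KO libraries lay below WT libraries without overlap for 6 of the 7 tested members in SSC (25.8% of all genes tested did so), for the same 6 in pBCSP (24%) and for 3 in BCSP (26.4%). Lef1 was the member left out in SSC and pBCSP. Lgr5, Nkd2 and Znrf3 were lower without overlap in all 3 populations, as were 6.53% of all genes. In the direction of higher KO values, Nkd1 was the 1 member without overlap in BCSP (24.2% of all genes), and 0 members were higher without overlap in SSC (13.7%), in pBCSP (21.2%) or in all 3 populations (5.32%). By edgeR, 0 members and 0 of all 17494 genes (0%) were called within any single population, and at an unadjusted p under 0.05 there was 1 member in SSC (Nkd1), 1 in pBCSP (Znrf3) and 0 in BCSP, both lower, beside 3.68%, 2.53% and 2.03% of all genes under 0.05 as lower. DESeq2 called 1 member in pBCSP (Znrf3, adjusted p = 0.00631), beside 99 of all genes, and 0 members in SSC and BCSP.

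**Figure D2:**
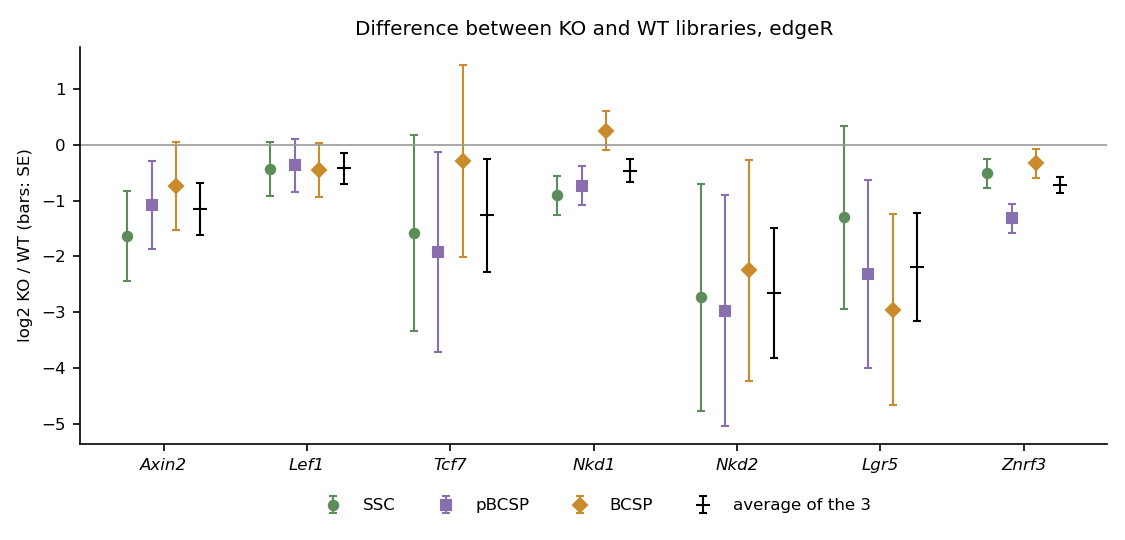
Fitted log2 difference between KO and WT for the 7 tested genes in each population and on average, with bars of 1 SE from edgeR. All 7 averages lie below 0, Nkd1 in BCSP (0.26) is the 1 population value above 0, and the bars of Tcf7, Nkd2 and Lgr5 are the longest.

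The 2 KO libraries of a population did not carry these differences equally. Set against the WT mean of its population on the log2 CPM scale, Nkd2 was at -1.66, -1.92 and -1.29 in KO replicate 1 of SSC, pBCSP and BCSP, and at -7.29, -6.84 and -5.54 in KO replicate 2. Lgr5 was at -0.29, -1.67 and -1.97 in KO replicate 1 and at -5.79, -2.56 and -5.83 in KO replicate 2. Tcf7 was at -0.53, -0.92 and 0.51 against -6.61, -4.13 and -2.06. These 3 genes were thus lowest in the same 3 libraries, the second KO replicates. The other 4 genes shared the split in part. In SSC, replicate 2 was the lower for Axin2 (-0.97 and -2.53), Lef1 (0.03 and -1.06) and Znrf3 (-0.21 and -0.86), while Nkd1 was at -0.90 in both. In pBCSP, replicate 2 was the lower for Lef1 (-0.03 and -0.78) and Nkd1 (-0.32 and -1.29), while Znrf3 was at -1.35 and -1.28. In BCSP, replicate 1 was the lower for Axin2 (-1.07 and -0.29) and Lef1 (-1.05 and -0.02).

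Over the 7 members, the median against the WT mean was -0.53 and -2.53 in SSC KO replicates 1 and 2, -1.0 and -1.29 in pBCSP, and -1.05 and -0.38 in BCSP. The same median over all genes was -0.04 and -0.68 in SSC, -0.03 and -0.04 in pBCSP, and 0.00 and -0.06 in BCSP. Only SSC KO replicate 2 was shifted as a whole, and members lay below their WT mean in 5 to 7 of 7 cases in every KO library, beside 50.1% to 63.6% of all genes. With the 3 second KO replicates left out together, the averages were -1.67 log2 for Nkd2 and -0.62 for Znrf3. That fit has 1 KO library a population, which is assumed to vary like the WT groups.

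**Figure D3:**
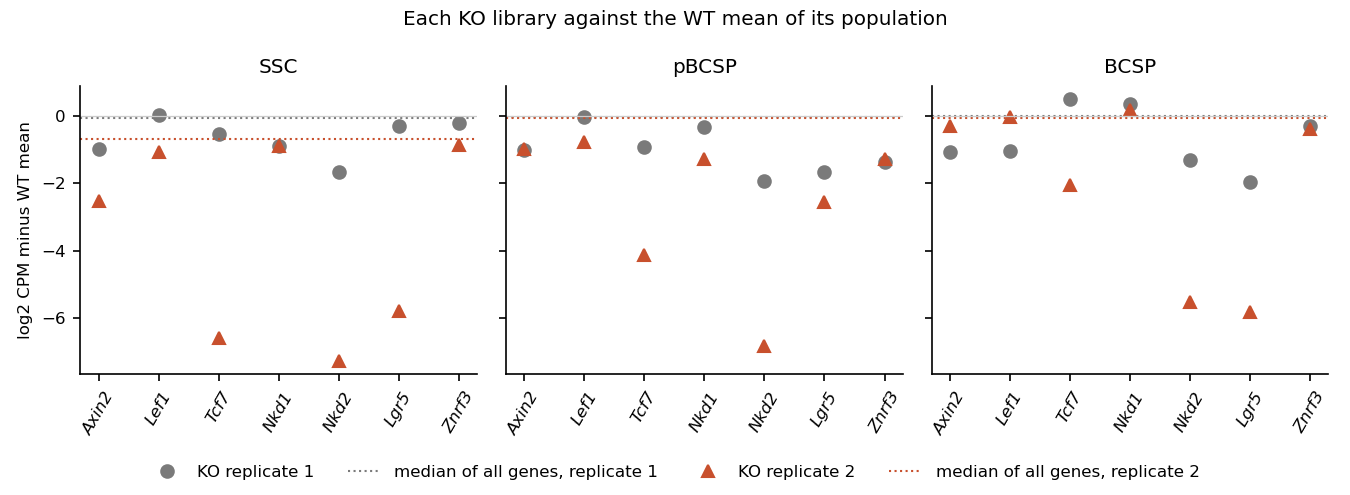
Log2 CPM of each KO library minus the WT mean of its population for the 7 tested genes; circles are KO replicate 1, triangles KO replicate 2, dotted lines the median of all genes in that library. Tcf7, Nkd2 and Lgr5 in replicate 2 reach -6.61, -7.29 and -5.79 in SSC, while Axin2, Lef1, Nkd1 and Znrf3 are at -2.53 or above in all 6 libraries.

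Summed levels of several marker lists of other cell types were also lowest in the second KO replicates. The summed CPM of 5 tendon markers was 157.9 to 1441 in WT and 87.9 to 741.7 in KO libraries, and in BCSP it was 1441 and 1264 in WT against 741.7 and 115.7 in KO replicates 1 and 2. The 6 endothelial markers summed to 4.78 to 48.2 CPM in WT and 0 to 20.1 CPM in KO, with all 6 at 0 in SSC KO replicate 2 and 4 of 6 at 0 in pBCSP KO replicate 2. The 7 osteoblast markers summed to 12170 to 40250 CPM in WT and 1868 to 19490 CPM in KO, and KO replicate 2 was the lower library in each population. Most of that sum was Col1a1, at 10930 to 39450 CPM in WT and 1470 to 18480 CPM in KO. Runx2 had a median of 25.4 CPM in WT and 39.5 CPM in KO. Of the 7 fitted differences, 6 were below 0 on average and 4 in BCSP. Erythroid markers (6 genes, 21.8 to 257.5 CPM in WT and 1.58 to 31.9 CPM in KO) and adipocyte markers (27.5 to 290.6 CPM in WT and 8.09 to 163.7 CPM in KO) had none called. Erythroid sums were lower in both KO libraries of each population, with replicate 2 above replicate 1 in SSC (12.3 and 31.9 CPM) and pBCSP (6.81 and 11.98 CPM). Adipocyte sums were lowest in KO replicate 2 of each population, while SSC KO replicate 1 (40.8 CPM) was above both SSC WT libraries (36.0 and 27.5 CPM). Of 8 chondrocyte markers 3 (Sox5, Matn1 and Matn3) were called, all as higher in KO. None of the listed skeletal progenitor, sorting surface, T cell, B cell, leukocyte, keratinocyte or skeletal muscle markers was called. The 6 skeletal muscle markers summed to 81.4 and 42.7 CPM in KO replicates 1 and 2 of SSC, 73.8 and 29.8 CPM in those of pBCSP and 380.9 and 50.3 CPM in those of BCSP, beside 348.7 and 522.3 CPM in BCSP WT. The 8 leukocyte markers summed to 38.4 CPM in SSC KO replicate 2 and to 2.98 to 7.35 CPM in the other SSC libraries. The keratinocyte sum was 15.8 to 21.5 CPM in WT and 16.5 to 53.6 CPM in KO. On average none of the 5 tendon, 6 endothelial or 7 osteoblast markers was called, and their median differences were -0.91, -1.73 and -1.34 log2. Their part in the members' differences was not tested.

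Between the WT populations, no member passed the threshold, nor did any of the 17494 genes (0%). At an unadjusted p under 0.05 there was 1 member in each of the 3 comparisons, as lower: Nkd1 in pBCSP against SSC (1.27% of all genes), Znrf3 in BCSP against pBCSP (1.11%) and Nkd1 in BCSP against SSC (1.13%). Nkd1 had the clearest order, with means of 65.3 ± 5.6 CPM in SSC, 31.6 ± 1.8 in pBCSP and 19.5 ± 3.1 in BCSP (SD, n = 2 libraries), and no library of one population reached into the next. BCSP against SSC gave -1.74 ± 0.36 log2 (unadjusted p = 0.000779, adjusted p = 0.846; DESeq2 adjusted p = 0.00616) and pBCSP against SSC -1.05 ± 0.35 (unadjusted p = 0.0147, adjusted p = 1). Znrf3 was highest in pBCSP, with -0.95 ± 0.26 log2 in BCSP against pBCSP (unadjusted p = 0.00521, adjusted p = 1). Nkd2 and Lgr5 had their highest WT values in BCSP, where both libraries of each gene exceeded all other WT libraries, at 26.1 and 35.4 CPM and at 15.7 and 25.3 CPM. Fitted BCSP minus SSC differences were 0.80 ± 1.9 log2 for Nkd2 and 1.78 ± 1.64 for Lgr5, neither distinguishable from 0 by edgeR (unadjusted p = 0.684 and 0.303). Axin2, Lef1 and Tcf7 differed by -0.48 ± 0.78, -0.17 ± 0.48 and -1.28 ± 1.74 in that comparison.

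In the shape of their profile over the 12 libraries the members formed loose pairs. The distance between 2 genes was taken as the root mean square difference of log2 CPM after each gene's own mean was removed, and it is a description with shared libraries and no test. Lef1 and Znrf3 were the closest members at 0.43, followed by Axin2 and Lef1 at 0.52 and Axin2 and Znrf3 at 0.53. Tcf7, Nkd2 and Lgr5 lay 1.27 to 1.37 from each other, and Nkd1 and Nkd2 were farthest apart at 2.66. Among the other 17493 genes, those nearest to Axin2 were Bcl2l1 (an inhibitor of apoptosis, 0.297), Bambi (a pseudoreceptor of the TGF-beta family, 0.311) and Dhx29 (an RNA helicase of translation, 0.311), where the median gene was at 1.01. Nearest to Lef1 were Timm10 (0.239), Etv5 (an ETS transcription factor, 0.242) and St6galnac4 (0.243), with the median gene at 0.884. Bcl2l1 was also the nearest to Axin2 without SSC KO replicate 2, at 0.241, and the other 5 names were not among the nearest 3 then.

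The rest of the pathway was read from lists by role, beginning with the ligands. All 13 tested Wnt ligands of 19 listed lay below 0 on average, as did 55.3% of all genes. None of the ligands was called, and their median was -1.22 log2. The lower direction was not shared equally: SSC had all 13 below 0 (median -2.23), pBCSP 11 (median -1.23) and BCSP 7 (median -0.28). Of all genes tested, 59.7%, 51.5% and 50.4% lay below 0 in these populations. The other 6 ligands lay above 0 in BCSP. SSC KO replicate 2, the library that stood apart, had 17 of the 19 listed ligands at 0, beside 7 for SSC KO replicate 1. Wnt11, the ligand with the highest mean CPM, was at 19.5 to 46.0 CPM in WT and 0.277 to 17.6 CPM in KO libraries, without overlap (-1.53 ± 0.83, adjusted p = 0.338). Wnt5b was at -0.01 ± 0.58. Of the genes of Wnt secretion, Wls (the carrier of Wnt proteins) was at 0.07 ± 0.29 and Porcn (the enzyme that acylates them) at -0.09 ± 0.79, neither called.

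R-spondins, the ligands of Lgr5, had fitted differences on both sides of 0. Rspo2 was at 0.776 to 10.5 CPM in WT and 0 to 6.01 CPM in KO libraries (-3.69 ± 0.79, adjusted p = 0.0696), and Rspo3 at 1.84 to 8.41 CPM in WT and 4.86 to 46.1 CPM in KO (1.60 ± 0.43, adjusted p = 0.0993). None of the 3 tested R-spondins was called. Among 16 receptors and co-receptors, 0 were called and 12 lay below 0 (median -0.57), with Fzd9 at -0.14 ± 0.26 and Lgr4 at 0.45 ± 0.32.

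Inside the cell, 0 of 9 genes of the relay and destruction complex were called and 8 lay below 0 (median -0.47). Csnk1a1, the priming kinase, was at -0.14 ± 0.15, and Gsk3b, the kinase that marks beta-catenin for degradation, at -0.72 ± 0.27 (adjusted p = 0.19). None of 11 nuclear partners was called, with 4 below 0 and a median of 0.03. Tcf7l2, a TCF/LEF factor, was at 0.47 ± 0.17 (adjusted p = 0.192), and Ctnnbip1, an inhibitor of beta-catenin, at 0.29 ± 0.18. Of 7 other commonly named Wnt targets, 6 were below 0, with a median of -0.46, and none was called, with Myc at -0.52 ± 0.52 and Id2 at -0.46 ± 0.16 (adjusted p = 0.167).

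The secreted inhibitors held the only called pathway genes, 2 of 11, both higher in KO. Sfrp5, a soluble Frizzled-like protein, was at 4.88 to 32.8 CPM in WT and 48.6 to 420.4 CPM in KO libraries, without overlap (3.87 ± 0.54 log2, adjusted p = 0.0266). Frzb, of the same family and a marker of cartilage, was at 44.0 to 150.4 CPM in WT and 109.2 to 734.4 CPM in KO, where the genotypes overlapped (1.58 ± 0.30, adjusted p = 0.049). Of the other 9 tested inhibitors, 8 had fitted differences below 0 and none was called, and the median of all 11 was -0.82. Wif1 was at 466 to 2306 CPM in WT and 352.3 to 1298 CPM in KO (-0.92 ± 0.29, adjusted p = 0.145), and Dkk3 at -0.82 ± 0.29 (adjusted p = 0.167). The calls of the 2 were lost in most fits without 1 library, in which no other gene was called either. Each of these fits leaves 1 library in a group. They cannot tell whether the 2 calls were less stable than those of other genes. With genotype and replicate number joined as a random block in limma (estimated correlation 0.329), 0 of the 11 were called, beside 44 of all genes.

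**Figure D4:**
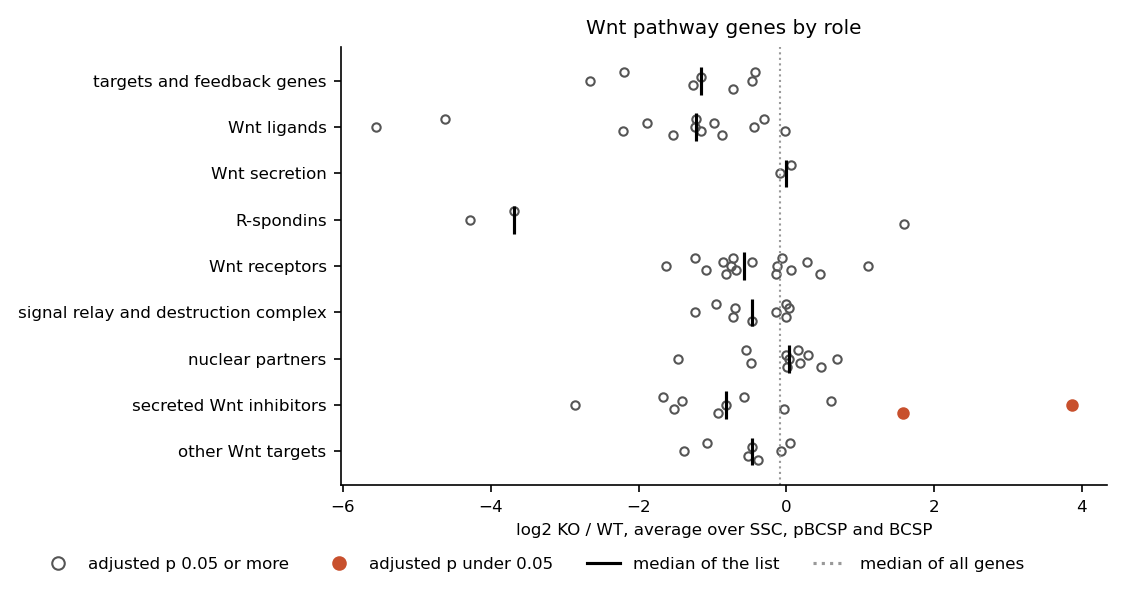
Average log2 difference between KO and WT for each tested gene of the Wnt pathway by role; filled points have an adjusted p under 0.05 (edgeR), black bars are list medians and the dotted line is the median of all genes (-0.09). The 2 filled points are Frzb (1.58) and Sfrp5 (3.87), and all 13 ligands and all 7 targets and feedback genes lie below 0.

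H3K4me3, a mark of active or poised promoters, was found near the start of most of the 9 genes whether or not they had RNA. A peak was counted where it reached within 1 kb of a listed start, or of either end of the gene for Lgr5 and Znrf3, which are not in the promoter table. On that count 8 of 9 genes had a peak in each of the 6 lists, and 6 of the 7 genes in the table did, beside 51.9% and 54.2% of the 26794 genes of the table in SSC WT and KO, 50.9% and 50.3% in pBCSP and 52.0% and 53.0% in BCSP. Both genotypes had the mark at the same 8 genes. H3K4me3 and H3K4me1 have 1 list a group, so their widths and folds have no replicate check, and peak scores are the authors'.

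Sp5 and Rnf43 had this mark with almost no reads. The Sp5 peak was 3838 to 5596 bases wide with a fold enrichment of 7.87 to 11.7 and reached 1691 to 3289 bases upstream and 2059 to 2306 bases downstream of the start, across the stretch printed for it. The Rnf43 peak was narrower, 727 to 1025 bases, with a fold of 6.30 to 11.1. No listed start of another gene lay under either peak. Median H3K4me3 peaks at starts were 1792 to 2237 bases wide in the 6 lists.

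Axin2 had the widest H3K4me3 peak of the members in 5 of 6 lists, at 5218 to 6854 bases (in pBCSP WT that of Lef1 was wider, at 6034 against 5872 bases), above the 90th percentile for start peaks (3509 to 4551 bases) in every list. It began 379 to 527 bases upstream of the listed start and ended 4838 to 6447 bases downstream, so it lay within the gene record. Its fold enrichment was 14.8, 16.4 and 16.3 in WT SSC, pBCSP and BCSP and 15.4, 12.9 and 15.5 in KO, so KO was above WT in SSC and below it in the other 2 populations. Lef1 had a peak of 3618 to 6034 bases over its first 3 listed starts, and none at the start inside the gene. At Tcf7 the peak was 2630 to 4197 bases wide (fold 8.03 to 10.4), and at Nkd2 it was 1046 to 1804 bases (fold 10.4 to 14.8).

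Nkd1 was the exception at its listed start, but the start listed for it lies 6291 bases inside the gene record. At the 5′ end of that record, an H3K4me3 peak of 2629 to 4955 bases with a fold of 13.7 to 18.1 was present in all 6 lists. Counting gene ends as well, a choice made after seeing these peaks, gave 9 of 9 genes in every list, beside 51.1% to 54.9% of the table. One start of another gene, Gm35162, lay under the Nkd1 peak, and 1, of Gm30303, under the Nkd2 peak. The Lgr5 and Znrf3 peaks, at the upper end of each gene, were 2938 to 3997 and 2595 to 3473 bases wide.

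**Figure D5:**
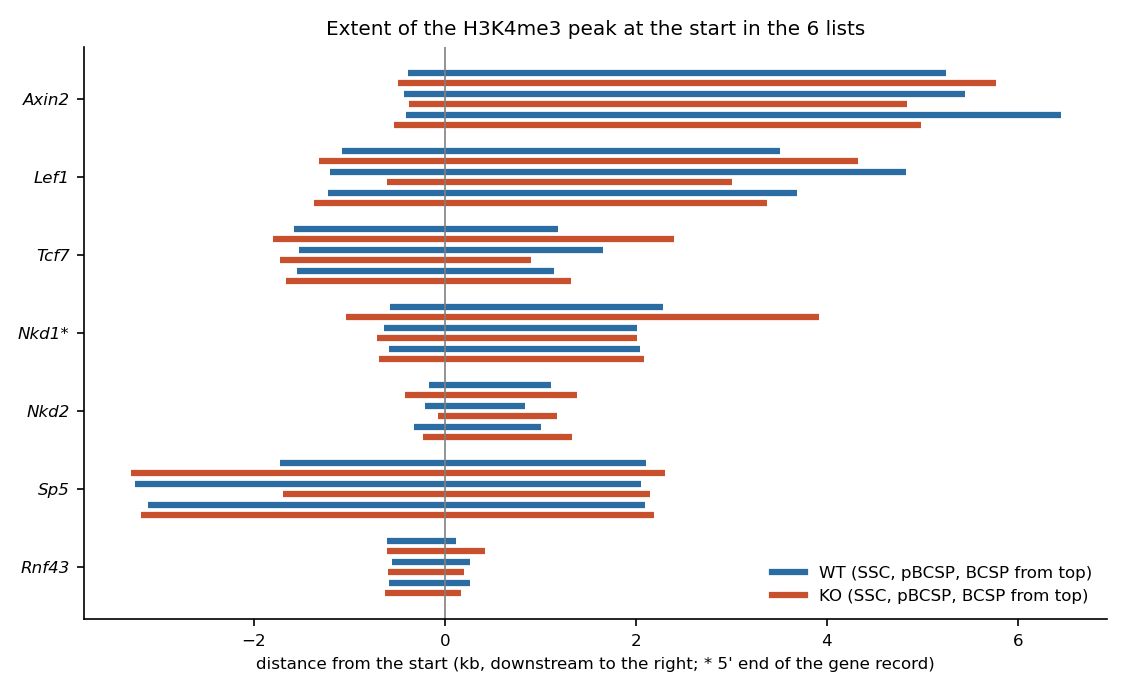
Extent of the H3K4me3 peak in the 6 lists, in kb from the start (downstream to the right); for Nkd1 the zero is the 5′ end of the gene record, for Tcf7 and Lef1 the most upstream listed start, and Lgr5 and Znrf3 are left out since their strand is not given. The Axin2 peak extends 4838 to 6447 bases downstream, that of Sp5 reaches 1691 to 3289 bases upstream, and WT (blue) and KO (red) bars overlap for each gene.

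H3K4me1, a mark of enhancers and promoter flanks, was found on the same count at 6 to 9 of the 9 genes in the 6 lists. Of the 7 genes in the promoter table, 5 had it in SSC WT and in SSC KO, beside 41.7% and 57.6% of the table. In pBCSP all 7 had it in WT and in KO (58.3% and 60.8% of the table), and in BCSP 6 did (55.7% and 61.1%). Nkd1, Tcf7, Lef1, Sp5 and Lgr5 had it in all 6 lists. The strongest peak at the listed Nkd1 start, inside the gene, was 1900 to 8748 bases wide. At its listed start, which lies 2521 bases inside the gene record, Axin2 had an H3K4me1 peak only in the 2 pBCSP lists. Within 1 kb of the 5′ end of that record, it had one in SSC KO, pBCSP KO, BCSP WT and BCSP KO. Over the 9 genes with 10 kb on either side, H3K4me1 peaks covered 12.6% to 21.9% of the bases, beside 5.19% to 12.1% around all protein-coding genes. In Nkd1 alone the share was 32.0% to 49.8%. The SSC WT list had the fewest H3K4me1 peaks over the genome (75277, beside 113313 to 148530 in the others), and it also gave the smallest share here. Most of these peaks were weak: at a −log10 q of at least 5, 1 of 27 pairs of gene and list had one in WT and 1 of 27 in KO.

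No H3K27ac peak, the sign of an active promoter or enhancer, was found within 1 kb of a start of any of the 9 genes in any of the 12 lists. The share of the table's genes with one was 4.06% to 12.9% in the first lists and 0.164% to 11.5% in the second. These lists were short, with 137 to 8572 peaks, and the first and second list of each group have different formats. Within 10 kb of a gene, peaks were found only at Znrf3 and Rnf43. Znrf3 had 2 peaks covering 2289 bases in the first pBCSP WT list, 2 covering 731 bases in the first BCSP WT list and 1 of 200 bases in the second BCSP KO list. Rnf43 had 1 peak in both pBCSP WT lists, in the first BCSP WT list and in the second pBCSP KO list. In the first pBCSP and BCSP WT lists, where 2 of the 9 genes had a peak, 25.8% and 27.3% of protein-coding genes had one. In the second pBCSP WT, pBCSP KO and BCSP KO lists, with 1 of the 9 each, the shares were 13.7%, 4.57% and 26.1%. Neither gene had a peak in the first KO lists, in which 11.1% to 25.8% of protein-coding genes had one, and the 2 lists of a group did not repeat each other for Znrf3.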

How the data were processed

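The authors deposited 1 table of raw counts per gene for the 12 RNA libraries and 1 peak list for each of 24 ChIP libraries, whose inputs were not analysed here. Per the labels' protocols, RNA was selected on oligo-dT beads and chromatin was digested with MNase. Tools listed, without settings, in the submitters' processing notes are MACS2 2.2.6, featureCounts 2.0.1, Bowtie2 2.3.5.1, SAMtools 1.9 and Trim Galore 0.6.6, with the build GRCm38. In the peak lists as deposited, each peak carries a fold enrichment (a ratio) and a −log10 q-value from the authors' peak caller; 18 lists have the broad and 6 the narrow layout.

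Counts were fitted in R 4.3.3 with edgeR 4.0.16 (TMM, filterByExpr defaults, 6 group means, no replicate block). All 55487 rows were genes and entered library sizes, and 17494 passed the filter. limma 3.58.1, DESeq2 1.42.0, RLE scaling, no filter, left-out libraries, other peak thresholds and windows were alternatives. CPM uses TMM-scaled library sizes. On simulated counts for the 17494 genes, the average comparison recovered 14% of 2-fold and 52% of 4-fold changes, and the SSC comparison 0% and 4%. The simulated libraries were independent, without the correlation between same-numbered libraries seen in the data. Recovery by the average comparison may therefore be lower in these data. Gene positions, names and promoters came from RefSeq tables of GRCm38.p6, and 55141 of 55487 IDs matched a symbol.

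The 9 genes and all lists were chosen with earlier results of these data known. Named besides the 9 are, for each pathway list, the 2 genes with the highest mean CPM and any called on average, and the 3 genes nearest in pattern to Axin2 and Lef1. Floors of 3 counts cover counting error only.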

Additional observations from a re-analysis of the deposited data

How the results depend on the processing

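With every gene holding at least 1 count kept, 3 members were called on average, beside 1882 of all genes. Their adjusted p was 1.717e-07 for Nkd2, 0.000632 for Lgr5 and 0.0275 for Znrf3. In SSC 1 member was called (Nkd2, 0.0348), beside 395 of all genes, and in pBCSP 1 (Nkd2, 0.0203), beside 260. DESeq2 called 1 on average (Znrf3, 0.000918), beside 1693 of all genes, and 1 in pBCSP (Znrf3, 0.00631), beside 99. Between WT BCSP and WT SSC it called 1 (Nkd1, 0.00616), beside 77 of all genes. Without single libraries, 0 to 5 members were called on average and 0 to 5 in SSC. The 5, in both, came without SSC KO replicate 1 (Axin2, Tcf7, Nkd2, Lgr5, Znrf3), where 6277 of all genes were called on average; the fewest without a single library was 0. A fit without the 3 second KO replicates together was chosen after seeing the data and has 1 KO library a population. Its averages were -1.67 log2 for Nkd2 and -0.62 for Znrf3. The causes were not tested. Uncalled differences changed sign in 12 of 868 alternative values: without single libraries Lef1 in SSC ran from -1.09 to 0.01, Tcf7 in BCSP from -2.23 to 0.50, between WT pBCSP and WT SSC Axin2 from -0.61 to 0.08, Lef1 from -0.15 to 0.33 and Lgr5 from -0.32 to 1.27, between WT BCSP and WT pBCSP Axin2 from -0.79 to 0.13 and Tcf7 from -0.60 to 0.28, and between WT BCSP and WT SSC Lef1 from -0.40 to 0.14. Without the 3 second KO replicates, Lef1 in SSC was at 0.01 and Tcf7 in BCSP at 0.50. Counts over all genes on average were 205 as fitted, 140 with RLE, 1693 by DESeq2, 1882 without the filter and 59 for pBCSP and BCSP only. With only H3K4me1 peaks of −log10 q of at least 5, the 23 gene and list pairs in WT and 24 in KO fell to 1 and 1 of 27.

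Replicate numbers did not pair WT with KO: deviations of same-numbered libraries correlated at 0.01, -0.022 and -0.082 between genotypes, and at 0.28 to 0.488 between populations of a genotype. With the number as a replicate block, 0 members were called on average (smallest adjusted p = 0.0624) and 141 of all genes. With genotype and number as a random block in limma, 0 members (0.123) and 44 genes were called, and the 2 secreted inhibitors were not. With 2 libraries a group, depth limits Sp5 and Rnf43, and none of the simulated 2-fold changes within SSC was recovered.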
